A study of Homo sapiens and Mus musculus with 4 samples.

Results

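The 9 genes described here encode proteins that stand directly below the T-cell receptor: the kinases LCK, FYN, ZAP70 and TXK, the adaptors LAT and LCP2, the membrane phosphatase PTPRC (CD45), the inhibitory kinase CSK and the phospholipase PLCG1. They were chosen by gene symbol as genes of this pathway, with earlier results of these data known. The table held 60736 gene rows, 32738 human and 27998 mouse, and each of the 9 symbols had 1 row in each species, which gave 18 rows in all. The human rows were read in the human lines and the mouse rows in the mouse lines.

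Messenger RNA of 4 cell lines was sequenced in bulk, with 1 library per line, as a reference for a benchmark of single-cell RNA-seq methods. Both human lines came from T-cell leukaemias, Jurkat of CD4 type and TALL104 of CD8 type, and TALL104 was cultured with interleukin-2. The mouse lines were EL4, from a T-cell lymphoma, and IVA12, a B-lineage hybridoma (a line made by fusing a B cell with a myeloma cell). None of the lines was edited, and no treatment other than the culture medium was described. The medium differed between the lines, so interleukin-2 and the TALL104 line itself cannot be told apart. Each line is a tumour line or a fusion line and stands for itself, not for the primary T or B cell. Values are FPKM, fragments scaled by gene length and by library size. There were no replicates, so no spread within a line was measured, no test was made, and no p-value is given.

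The T-cell receptor has no kinase of its own. When it binds antigen, the Src family kinases LCK and FYN phosphorylate the CD3 and zeta chains, and ZAP70 binds there and is itself activated. ZAP70 then phosphorylates the scaffolds LAT and LCP2 (SLP-76), which assemble PLCG1 with Tec family kinases such as TXK, and PLCG1 makes the second messengers that release calcium and activate protein kinase C and Ras. CSK holds LCK and FYN in check by phosphorylating their inhibitory tyrosine, and PTPRC removes that phosphate. B cells run a parallel circuit below the B-cell receptor, in which LYN, BLK, SYK, BLNK, BTK and PLCG2 take the corresponding places. FYN, CSK and PTPRC are used in both lineages.

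The total behind the FPKM scaling of each library was recovered from the FPKM values and the annotated gene lengths. It ranged from 25286728 reads in IVA12 to 34783047 reads in Jurkat and need not equal the number of reads sequenced. Intervals below are exact 95% intervals computed from the reads recovered per gene. They hold counting error alone, because several reads can stem from 1 molecule and no culture was repeated. The lines were checked against 8 T-lineage and 7 B-lineage marker genes. T-lineage markers at 1 FPKM or more numbered 8 in Jurkat, 7 each in TALL104 and EL4, and 4 in IVA12. The summed level of all 8 was 596 to 856 FPKM in the T-cell lines and 19.8 FPKM in IVA12. Most of the IVA12 sum came from Cd2 (9.99 FPKM) and Cd6 (7.04 FPKM), and Cd6 was higher there than in EL4 (0.503 FPKM). The B-lineage markers summed to 1999 FPKM in IVA12 and to between 2.63 and 64.4 FPKM in the T-cell lines. Of that sum in the human T-cell lines, CD79A, a chain of the B-cell receptor, had 16.5 FPKM in Jurkat and 24.6 FPKM in TALL104, and MZB1 had 47.7 FPKM and 8.88 FPKM. The part of these in the results was not tested. IVA12 had Jchain at 1289 FPKM, Mzb1 at 499 FPKM, Cd79b at 163 FPKM and Ms4a1 at 46.5 FPKM. Its B-lineage markers Cd79a (0.0543 FPKM), Cd22 (0.119 FPKM) and Pax5 (0.156 FPKM) were near 0.

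In the human pair 8 of the 9 genes had the higher level in TALL104, and in the mouse pair 5 of the 9 (Lck, Zap70, Txk, Lat and Lcp2) were below 1 FPKM in IVA12. For the human count no share over all genes was taken, and shares at the 1.5-fold threshold follow below. Of all 27998 mouse rows only 9809 reached 1 FPKM in IVA12, so a level below 1 FPKM there was common. The summed level of the 9 genes was 495 FPKM in Jurkat and 833 FPKM in TALL104, against 440.0 FPKM for EL4 and 122 FPKM for IVA12. A level of at least 10 FPKM was reached by 8 of the 9 genes in Jurkat and all 9 in TALL104, by 7 in EL4 and by 2 in IVA12. The 2 genes in IVA12 were Csk and Fyn. Jurkat lacked TXK at 10 FPKM, and EL4 lacked Txk and Plcg1. The median of the 9 levels was 37.4 FPKM in Jurkat and 58.2 FPKM in TALL104, and 47.8 FPKM in EL4 but 0.527 FPKM in IVA12. In bulk RNA, fewer expressing cells and less RNA per cell cannot be told apart.

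**Figure D1:**
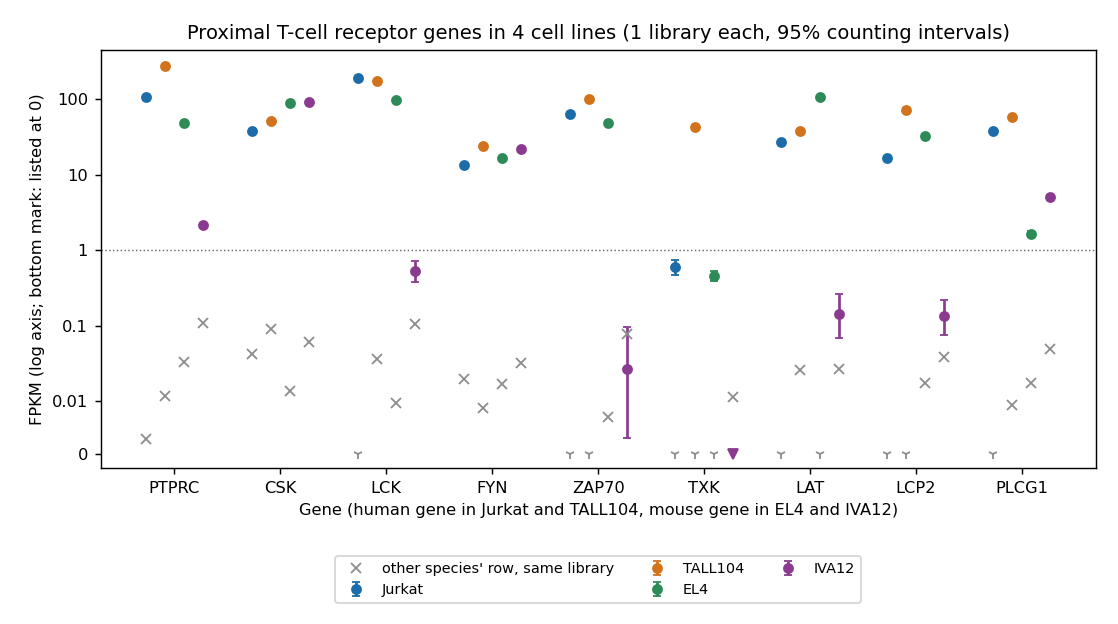
Level of each gene in the 4 libraries in FPKM (log axis, with 0 drawn at the bottom), coloured by line, with 95% counting intervals; grey crosses and marks show the row of the other species in the same library, and the dotted line is 1 FPKM. All 4 lines lie within 10 to 100 FPKM for CSK and FYN, while IVA12 drops below 1 FPKM for LCK, ZAP70, LAT and LCP2 and is listed at 0 for TXK.

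Differences were called at more than 1.5-fold in FPKM + 1 among genes with at least 1 FPKM in either line of a species. In the human pair all 9 genes passed this minimum. None was called higher in Jurkat, where 34.2% of the 12214 human genes compared were, and 6 were called higher in TALL104, where 28.4% of the genes compared were. The remaining 3 (LCK, LAT and CSK) were past the threshold in neither direction. The median log2 ratio of Jurkat over TALL104 was -0.63 over the 9 genes and 0.10 over all genes compared. Among the mouse genes 8 passed, and Txk did not. Of these 8, 5 were called higher in EL4 (background 23.8% of 10801 genes), 1 was called higher in IVA12 (background 26.5%), and Fyn and Csk were past the threshold in neither direction. The median log2 ratio of EL4 over IVA12 was 4.44 over the 8 genes and -0.04 over all genes compared. With Txk included the median was 3.98, and it was 4.90 with Txk placed at the bound that its 0 reads in IVA12 allow. Lck, Zap70, Lat and Lcp2 passed the minimum through EL4 alone and TXK through TALL104 alone, so these had to differ to be counted.

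**Figure D2:**
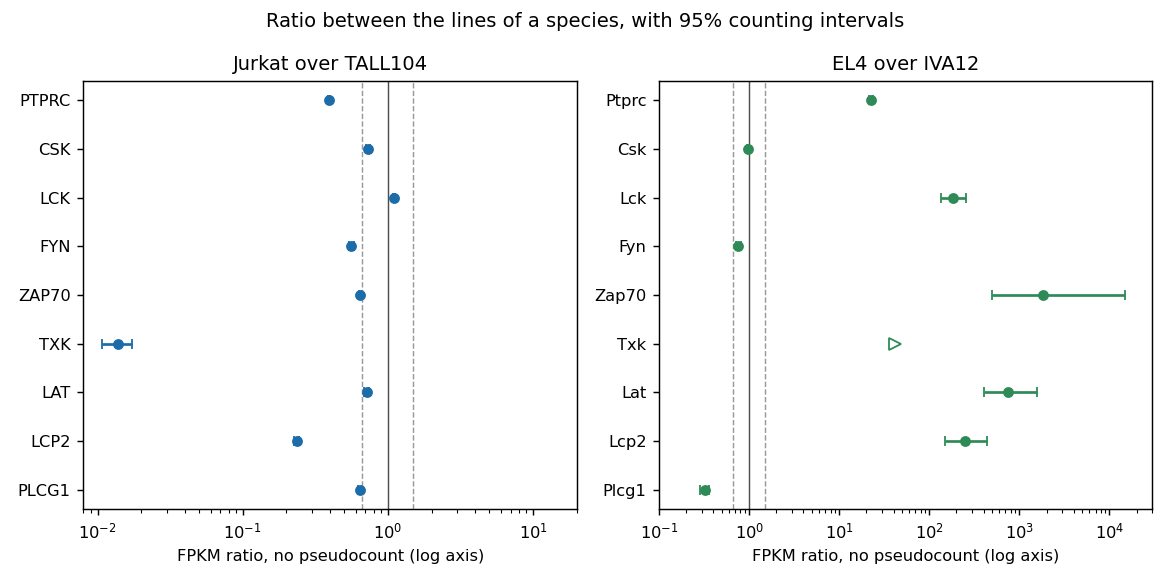
FPKM ratio between the lines of each species, without a pseudocount, on a log axis (left, Jurkat over TALL104; right, EL4 over IVA12), with 95% counting intervals; the solid line is no difference, the dashed lines are 1.5-fold, and the open triangle is a lower bound. In the human pair TXK stands far to the TALL104 side and LCK alone lies to the right of 1; in the mouse pair Csk lies at 0.973 and Zap70 at 1807.

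PTPRC (ENSG00000081237, hg19 chr1:198607587-198726605, plus strand) encodes CD45, the abundant leukocyte phosphatase that primes LCK and FYN. It had 108 FPKM in Jurkat (interval 106 to 109) and 274 FPKM in TALL104 (272 to 276), the highest level of any of the 9 genes in any library. The level in TALL104 was 2.54 times that in Jurkat (2.51 to 2.58). Mouse Ptprc (ENSMUSG00000026395, mm10 chr1:138062861-138175708, minus strand) had 49.1 FPKM in EL4 (48.6 to 49.7) against 2.19 FPKM in IVA12 (2.05 to 2.32). EL4 was 22.5 times higher (21.1 to 24.0), and the 1012 reads in IVA12 place the gene well above a count of 0 there. Among the 5 genes called higher in EL4, Ptprc kept the largest fraction of its level in IVA12, at 0.0445 of EL4.

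CSK (ENSG00000103653, hg19 chr15:75074421-75095538, plus strand), the kinase that restrains LCK and FYN, was the one gene of the 9 that was past 1.5-fold in neither species. It had 37.9 FPKM in Jurkat (36.97 to 38.9) and 51.9 FPKM in TALL104 (50.7 to 53.1), a ratio of 1.37 toward TALL104 (1.32 to 1.42). Csk (ENSMUSG00000032312, mm10 chr9:57626646-57653631, minus strand) had 89.2 FPKM in EL4 (87.2 to 91.2) against 91.7 FPKM in IVA12 (89.4 to 93.9). The counting interval of EL4 over IVA12, 0.941 to 1.01, contained 1, so a difference was not detectable at this depth. Csk was the highest of the 9 genes in IVA12, above 94.4% of the mouse genes detected there.

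The promoters of CSK and TXK are shown because CSK was called in neither species and TXK had the widest human ratio. Each line gives the 250 bases before the RefSeq start in hg19, read on the gene's strand, and capitals mark matches to the motifs searched. The CSK window lies inside the span of the longer CSK gene of the GENCODE annotation, which begins at 75074421. It therefore does not stand before the first start of that gene, while the TXK window lies directly before the TXK gene.
CSK, chr15:75080635-75080884, plus strand: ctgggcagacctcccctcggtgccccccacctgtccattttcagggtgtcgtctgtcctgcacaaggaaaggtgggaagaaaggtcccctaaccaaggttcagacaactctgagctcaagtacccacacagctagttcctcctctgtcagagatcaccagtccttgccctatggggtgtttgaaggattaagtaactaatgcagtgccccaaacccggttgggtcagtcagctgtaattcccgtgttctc
TXK, chr4:48136268-48136517, minus strand: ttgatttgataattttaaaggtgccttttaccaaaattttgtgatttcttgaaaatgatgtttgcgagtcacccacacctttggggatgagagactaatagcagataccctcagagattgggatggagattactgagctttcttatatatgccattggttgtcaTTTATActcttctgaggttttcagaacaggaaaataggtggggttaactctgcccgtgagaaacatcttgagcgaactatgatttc
The CSK window was 54.0% G and C with 4 CpG pairs, and the TXK window was 38.4% G and C with 3 CpG pairs. Over 35116 RefSeq promoter windows of this length the medians were 58.0% and 11 pairs. Short motifs were searched on both strands, the ETS core CCGGAA, the RUNX core TGTGGT, the GC box GGGCGG and the TATA box TATAAA, which occur in 14.5%, 11.0%, 42.6% and 10.7% of all windows. CSK had no match, and TXK had 1 match, to TATAAA on the opposite strand. A match is a description of the letters and not a binding site.

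LCK (ENSG00000182866, hg19 chr1:32716845-32751766, plus strand), the Src family kinase carried by the CD4 and CD8 coreceptors, was the highest of the 9 genes in Jurkat. It had 190.1 FPKM in Jurkat (188 to 193) and 173 FPKM in TALL104 (170.1 to 175). The ratio of Jurkat over TALL104 was 1.10 (1.08 to 1.12), under the threshold, and LCK was the one gene of the 9 with the higher level in Jurkat. Lck (ENSMUSG00000000409, mm10 chr4:129548344-129573641, minus strand) had 96.5 FPKM in EL4 (94.5 to 98.5) against 0.527 FPKM in IVA12 (0.374 to 0.720). That was 9087 reads against 39, a ratio of 183 (134 to 258).

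FYN (ENSG00000010810, hg19 chr6:111981535-112194655, minus strand), the other Src family kinase of T cells and also used in many other tissues, lay between 13.3 and 23.8 FPKM in all 4 libraries. It had 13.3 FPKM in Jurkat (12.9 to 13.8) and 23.8 FPKM in TALL104 (23.1 to 24.5), 1.78 times more in TALL104 (1.71 to 1.86). Fyn (ENSMUSG00000019843, mm10 chr10:39368855-39565381, plus strand) had 16.4 FPKM in EL4 (15.8 to 17.1) against 21.8 FPKM in IVA12 (20.9 to 22.7), 1.32 times more in IVA12 (1.25 to 1.40). The B-lineage line thus held more Fyn than the mouse T-cell line, by less than the threshold, while its Lck was at 0.00546 of the EL4 level.

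FYN was also the one gene of the 9 whose human and mouse transcripts shared stretches of 100 bases among the genes listed here, and 98 such windows were shared, 1.17% of the human and 2.15% of the mouse windows. The longest shared coding stretch, 173 bases long, is printed because reads wholly inside it match both species. It lies in exons 9 and 10 of human transcript ENST00000354650 (hg19 chr6:112021307-112021463 and chr6:112017644-112017659, minus strand), and no base is capitalised since all of them match the mouse.
FYN and Fyn, coding strand: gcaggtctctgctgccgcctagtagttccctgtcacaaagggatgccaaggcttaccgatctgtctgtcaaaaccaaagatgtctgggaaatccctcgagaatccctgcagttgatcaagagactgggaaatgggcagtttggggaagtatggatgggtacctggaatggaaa
The row of the other species was low: mouse Fyn had 3 reads in Jurkat and 1 in TALL104, and human FYN had 4 reads in EL4 and 6 in IVA12. How reads with several alignments were treated is not given. These counts therefore cannot show whether reads of the stretch were dropped.

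ZAP70 (ENSG00000115085, hg19 chr2:98330039-98356325, plus strand) encodes the Syk family kinase that docks on the phosphorylated zeta chain. It had 64.5 FPKM in Jurkat (63.4 to 65.7) and 99.8 FPKM in TALL104 (98.1 to 101). TALL104 was 1.55 times higher (1.51 to 1.58), close to the threshold. Zap70 (ENSMUSG00000026117, mm10 chr1:36761798-36782818, plus strand) had 47.8 FPKM in EL4 (46.4 to 49.2) against 0.0264 FPKM in IVA12 (0.00320 to 0.0955). IVA12 had 2 reads against 4595 in EL4, and the ratio of 1807 has a wide counting interval, from 499.97 to 14926. The human ZAP70 row in the same IVA12 library had 10 reads, more than the mouse row.

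TXK (ENSG00000074966, hg19 chr4:48068410-48136267, minus strand), a Tec family kinase of T and NK cells, separated the human lines most. It had 0.596 FPKM in Jurkat (0.466 to 0.751) and 43.4 FPKM in TALL104 (42.1 to 44.7). With 72 reads in Jurkat and 4273 in TALL104, the gene was 72.8 times higher in TALL104 (57.7 to 93.3). Txk (ENSMUSG00000054892, mm10 chr5:72695978-72752777, minus strand) was low in both mouse lines. It had 0.454 FPKM in EL4 (0.387 to 0.530), from 160 reads, and was listed at 0 in IVA12, where 3 reads would have given 0.0108 FPKM. Against that floor of 3 reads in the library, EL4 was at least 41.9-fold higher. TALL104 was thus the one library of the 4 with this gene above 1 FPKM, and the intervals of Jurkat and EL4 overlapped.

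LAT (ENSG00000213658, hg19 chr16:28996147-29002105, plus strand), the membrane scaffold on which the signalling complex is built, was the one gene of the 9 with its highest level in EL4. It had 27.0 FPKM in Jurkat (26.2 to 27.9) and 37.9 FPKM in TALL104 (36.8 to 39.0), a ratio of 1.40 toward TALL104 (1.35 to 1.46). Lat (ENSMUSG00000030742, mm10 chr7:126363824-126369570, minus strand) had 106 FPKM in EL4 (104 to 108) against 0.143 FPKM in IVA12 (0.0685 to 0.263). These were 9447 and 10 reads, a ratio of 743 (404 to 1550). The annotated exons of human LAT overlap those of 2 long non-coding RNA genes, 1 on each strand. Only the RNA gene on the opposite strand has a row of its own. The level of LAT may therefore hold reads of both RNA genes, or lack reads shared with that on the opposite strand.

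LCP2 (ENSG00000043462, hg19 chr5:169673237-169724819, minus strand) encodes SLP-76, the cytosolic adaptor that LAT recruits. It had 16.7 FPKM in Jurkat (16.2 to 17.3) and 71.2 FPKM in TALL104 (70.1 to 72.4). At 4.25 times more in TALL104 (4.11 to 4.40) it had the widest human ratio after TXK. Lcp2 (ENSMUSG00000002699, mm10 chr11:34046920-34092295, plus strand) had 32.8 FPKM in EL4 (31.8 to 33.7) against 0.133 FPKM in IVA12 (0.0745 to 0.219). The 15 reads in IVA12 against 4695 in EL4 gave a ratio of 246 (149 to 440.2). Exons of the human gene overlap C5orf58, and exons of the mouse gene overlap 4930469K13Rik, on the opposite strand in each. C5orf58 has a row of its own and 4930469K13Rik has none. How overlapping reads were counted is not given, so reads of either neighbour may be included, and reads shared with C5orf58 may be missing.

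PLCG1 (ENSG00000124181, hg19 chr20:39765600-39825441, plus strand), the phospholipase that turns the assembled complex into calcium and diacylglycerol signals, was higher in IVA12, unlike the 5 mouse genes called higher in EL4, and higher in TALL104 among the human lines. It had 37.4 FPKM in Jurkat (36.6 to 38.1) and 58.2 FPKM in TALL104 (57.2 to 59.3), 1.56 times more in TALL104 (1.52 to 1.601). Plcg1 (ENSMUSG00000016933, mm10 chr2:160731300-160775760, plus strand) had only 1.64 FPKM in EL4 (1.48 to 1.80) against 5.09 FPKM in IVA12 (4.78 to 5.41). IVA12 was 3.11 times higher (2.77 to 3.50), and Plcg1 was the one gene of the 9 called higher in IVA12. In EL4 it ranked 9106 among the mouse genes, while Lat ranked 452 and Lck 512. The exons of PLCG1 overlap those of 4 other genes and the exons of Plcg1 those of 2, with ZHX3 or Zhx3 on the opposite strand in each.

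The order of the lines differed between the genes. TALL104 had the highest level for FYN, ZAP70, TXK, LCP2, PTPRC and PLCG1, Jurkat for LCK, EL4 for LAT and IVA12 for CSK. IVA12 had the lowest level for LCK, ZAP70, TXK, LAT, LCP2 and PTPRC, Jurkat for FYN and CSK, and EL4 for PLCG1. Counting intervals of neighbours in the order overlapped for CSK between IVA12 and EL4 and for TXK between Jurkat and EL4. Human and mouse levels rest on different gene models and lengths, so these orders are given side by side and no ratio across species was taken.

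Reads had been aligned to the human and mouse genomes together, so the row of the other species shows reads that fell on the wrong species. Any reads from the other line of the same species would fall in the own-species row and are not seen this way. The 9 mouse rows held 9 reads in Jurkat and 21 in TALL104, and the 9 human rows held 25 in EL4 and 75 in IVA12. The highest such row was Csk in Jurkat (0.0418 FPKM) and in TALL104 (0.0899 FPKM), and PTPRC in EL4 (0.0329 FPKM) and in IVA12 (0.107 FPKM). Rows at 0 numbered 6, 3, 2 and 0 of 9 in that order of libraries. In IVA12 the own-species values of Lat (0.143 FPKM) and Lcp2 (0.133 FPKM) were within 2-fold of the highest human row, that of PTPRC. They were further above the human rows of the same symbols, LAT at 0.0268 FPKM (3 reads) and LCP2 at 0.0383 FPKM (7 reads). The Zap70 value was below both the PTPRC row and the human ZAP70 row (0.0774 FPKM). The part of background in these low values was not tested.

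The T-lineage genes were then set beside their family counterparts within each library, where depth cancels. Of 10 pairs, the first gene, the one typical of T cells or the more widely used one, had the higher FPKM in all 10 in Jurkat and TALL104, in 9 in EL4 and in 2 in IVA12. LCK is the first gene of more than 1 pair, so the pairs are not separate. In IVA12 both genes were below 1 FPKM for Txk with Btk, Lck with Blk, and Lat with Lat2. Lat had 0.143 FPKM (10 reads) and Lat2 0.438 FPKM (29 reads) there. TXK and BTK were also both below 1 FPKM in Jurkat and EL4. ZAP70 held 75.5% of the summed FPKM of ZAP70 and SYK in Jurkat (74.8% to 76.2%) and 79.4% in TALL104 (78.8% to 79.9%), with SYK at 21.0 FPKM and 25.9 FPKM. In EL4 Syk was listed at 0, and in IVA12 it had 13.0 FPKM while Zap70 held 0.203% of the pair (0.0246% to 0.730%). The human T-cell lines thus carried SYK beside ZAP70, and the mouse lines carried 1 of the genes each. LCP2 held over 99% of its pair with BLNK, the B-cell adaptor, in the T-cell lines, with shares of 99.3%, 99.99% and 99.9%, and Lcp2 held 0.335% in IVA12, where Blnk had 39.6 FPKM.

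**Figure D3:**
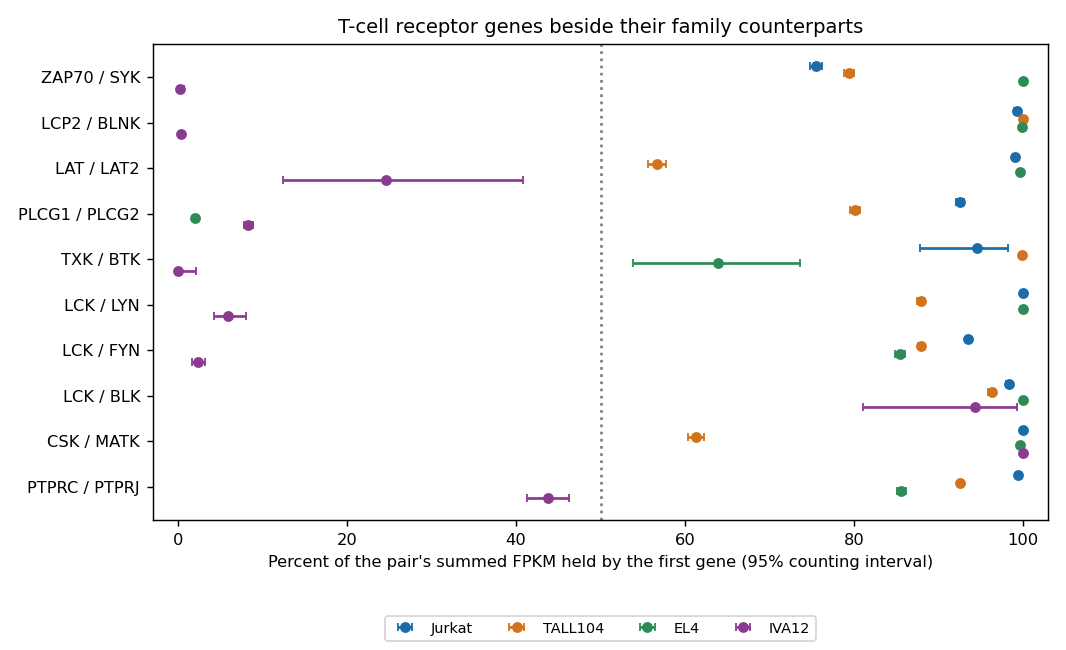
Share of a pair's summed FPKM held by the first gene named, in percent, for 10 pairs in the 4 libraries, with 95% counting intervals; the dotted line marks equal levels. IVA12 lies on the left except for LCK with BLK and CSK with MATK, and EL4 joins it on the left for PLCG1 with PLCG2 alone.

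The exception in EL4 was Plcg1. It held 1.98% of its pair with Plcg2 in EL4 (1.80% to 2.19%) and 8.30% in IVA12 (7.80% to 8.82%), since Plcg2, the phospholipase typical of B cells, had 80.8 FPKM in EL4 against 56.2 FPKM in IVA12. PLCG1 held 92.5% in Jurkat (92.0% to 93.0%) and 80.1% in TALL104 (79.5% to 80.7%), with PLCG2 at 3.02 FPKM and 14.5 FPKM.

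Several counterparts were near 0 in Jurkat and above 20 FPKM in TALL104. LAT2, the scaffold of B cells, NK cells and myeloid cells, had 0.247 FPKM in Jurkat and 29.0 FPKM in TALL104, so LAT held 99.1% of the pair in Jurkat and 56.7% in TALL104. MATK, the relative of CSK, had 1 read in Jurkat and 32.8 FPKM in TALL104, and the share of CSK was 99.98% in Jurkat and 61.3% in TALL104 (60.3% to 62.2%). LYN also had 1 read in Jurkat and had 23.8 FPKM in TALL104, level with FYN. PTPRJ, another receptor phosphatase, had 0.656 FPKM in Jurkat and 22.0 FPKM in TALL104. PTPRC held 92.6% of that pair in TALL104, 85.6% in EL4 and 43.8% in IVA12 (41.3% to 46.3%). BTK was near 0 in Jurkat (0.0340 FPKM) and TALL104 (0.0334 FPKM) and low in EL4 (0.257 FPKM), and it reached only 0.640 FPKM in IVA12.

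Among the Src family genes set beside LCK, LCK had the highest level in the 3 T-cell lines. LCK held 93.4% of the summed FPKM of LCK and FYN in Jurkat (93.2% to 93.7%), 87.9% in TALL104 (87.6% to 88.2%) and 85.4% in EL4 (84.9% to 86.0%). In IVA12 it held 2.36% (1.69% to 3.21%), and Fyn and Lyn, at 21.8 FPKM and 8.34 FPKM, were both above Lck. Blk, the Src family kinase named for B lymphocytes, had 2 reads in IVA12, so Lck held 94.3% of that pair (81.0% to 99.3%) at a level of 0.527 FPKM. Lyn, Blk and Yes1 were listed at 0 in EL4. TXK held 94.6% of its pair with BTK in Jurkat (87.8% to 98.2%) and 99.9% in TALL104, and Txk held 63.9% in EL4 (53.8% to 73.6%), where both genes were below 1 FPKM.

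A further 64 genes of the proximal pathway were listed by role. In the human pair 57 passed the minimum, and 5 of them (8.77%) were called higher in Jurkat, against 34.2% of all genes compared, and 29 (50.9%) in TALL104, against 28.4%. The other 23 were past the threshold in neither direction, and the median log2 ratio was -0.61. For EL4 and IVA12, 54 passed, with 28 (51.9%) called higher in EL4, against 23.8% of all genes compared, 11 (20.4%) in IVA12, against 26.5%, and 15 in neither, and a median of 0.68. The share higher in IVA12 was thus near that of all genes. Some genes passed the minimum only through the line where they were higher, so the filter itself bears on their calls. These numbered 5 through TALL104, 17 through EL4 and 4 through IVA12, and none did so through Jurkat.

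Of the 11 other Src, Tec and Syk family kinases, 7 passed in the human pair, of which 1 was higher in Jurkat (34.2% of all genes compared were) and 4 in TALL104 (28.4% were, median -0.61), and 5 passed in the mouse pair, of which 4 were higher in IVA12 (26.5% of all genes compared were) and 1 was past the threshold in neither direction (median -2.90, or -8.51 with genes at 0 placed at their bound). The largest human ratios were those of MATK and LYN, toward TALL104, and of SRC, which had 4.10 FPKM in Jurkat and 1.06 FPKM in TALL104. The largest mouse ratios were those of Syk (at least 1304-fold higher in IVA12), Lyn (at least 364-fold) and Yes1 (at least 519-fold). These 3 genes were listed at 0 in EL4 and passed the minimum through IVA12 alone, so they had to differ to be counted. LYN, MATK and TEC likewise passed through TALL104 alone.

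Of the 24 other adaptors, 21 passed in the human pair, with 1 (4.76%) higher in Jurkat, against 34.2% of all genes compared, and 8 (38.1%) in TALL104, against 28.4% (median -0.32). LAT2 was 117 times higher in TALL104 (85.7 to 165), SKAP1, an adaptor of integrin activation, had 8.48 FPKM in Jurkat and 124 FPKM in TALL104, and PAG1, the membrane protein that recruits CSK, had 6.76 FPKM and 35.7 FPKM. LAT2, at 0.247 FPKM in Jurkat, passed the minimum through TALL104 alone. Between EL4 and IVA12, 22 passed, with 13 (59.1%) higher in EL4, against 23.8% of all genes compared, and 3 (13.6%) in IVA12, against 26.5% (median 2.11, or 2.94 at the bound). Of the 22, 11 passed through EL4 alone and 1 through IVA12 alone. Trat1, a transmembrane adaptor of the receptor, had 61.3 FPKM in EL4 and no read in IVA12. Fyb, which binds LCP2, had 53.4 FPKM and 0.473 FPKM, and Blnk had 0.0312 FPKM and 39.6 FPKM.

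Of the 15 effectors, all passed in the human pair, with 2 (13.3%) higher in Jurkat, against 34.2% of all genes compared, and 10 (66.7%) in TALL104, against 28.4% (median -0.95). SOS1, a Ras activator, had 4.94 FPKM in Jurkat and 284 FPKM in TALL104, above every one of the 9 genes in that library. WIPF1, a partner of the actin regulator WAS, had 7.59 FPKM and 81.1 FPKM, and VAV3, a guanine nucleotide exchange factor, ran the other way with 24.4 FPKM in Jurkat and 1.83 FPKM in TALL104. Of the mouse effectors 14 passed, 2 of them through EL4 alone, with 6 (42.9%) higher in EL4, against 23.8% of all genes compared, and 3 (21.4%) in IVA12, near the 26.5% of all genes (median 0.53). Rasgrp1, the Ras activator that diacylglycerol recruits, had 73.0 FPKM in EL4 against 0.0282 FPKM in IVA12. Vav3 had 15.2 FPKM and 3 reads, and Was had 41.7 FPKM and 11.8 FPKM. The protein kinase C gene Prkcq was listed at 0 in both mouse lines, while PRKCQ had 29.8 FPKM in Jurkat and 58.6 FPKM in TALL104.

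The 14 genes listed as brakes were phosphatases, ubiquitin ligases and related genes, and this label does not fix the action of each gene. All 14 passed in the human pair, with 1 (7.14%) higher in Jurkat, against 34.2% of all genes compared, and 7 in TALL104, against 28.4% (median -0.61). PTPRJ was 33.5 times higher in TALL104 (28.5 to 39.5), the lipid phosphatase gene INPP5D was 13.4 times higher (12.7 to 14.3) with 67.3 FPKM in TALL104, and the ubiquitin ligase gene CBLB had 1.71 FPKM and 20.9 FPKM. PTPRJ, at 0.656 FPKM in Jurkat, passed the minimum through TALL104 alone. Of the mouse brakes 13 passed, 4 of them through EL4 alone, with 9 (69.2%) higher in EL4, against 23.8% of all genes compared, and 1 (7.69%) in IVA12, against 26.5% (median 1.31). Ptpn6, which encodes the phosphatase SHP-1, had 266 FPKM in EL4 against 6.31 FPKM in IVA12. Ptpn7 had 43.5 FPKM and 0.376 FPKM, and Ubash3a had 13.6 FPKM in EL4 and 3 reads in IVA12.

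**Figure D4:**
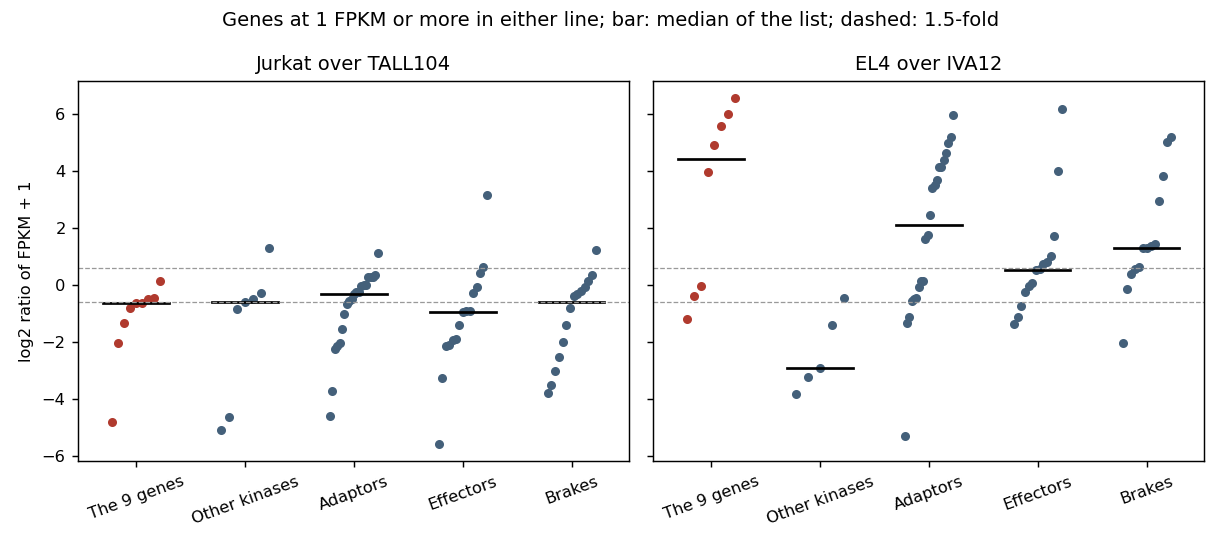
log2 ratio of FPKM + 1 of single genes at 1 FPKM or more in either line, for the 9 genes (red) and the 4 further lists (blue), in the human pair (left) and the mouse pair (right); black bars are medians and dashed lines 1.5-fold. The medians of the human pair lie between -0.95 and -0.32, and in the mouse pair they run from -2.90 for the other kinases to 4.44 for the 9 genes.

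The genes whose levels lay nearest to each of the 9 were found among 15549 symbols shared by the species, by the Euclidean distance of log2(FPKM + 1) over the 4 libraries. With 4 points per gene from lines of different species, such likeness is a description of these libraries only. FYN and CSK had close neighbours among widely used genes. The nearest to FYN were SEL1L (distance 0.20), ACTR8 (0.25) and MED13 (0.33), and the nearest to CSK were API5 (0.30), TMED9 (0.36) and CLTC (0.42). TXK was nearest to ADAM8 (0.28), ADAM19 (0.55) and APOBR (0.58), each of which had 38.2 to 59.0 FPKM in TALL104 and at most 1.06 FPKM elsewhere.

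The others had no gene so close. LCK was nearest to CD3E (0.95), SASH3 (1.40) and ITM2A (1.42), and ZAP70 to SASH3 (0.84), ANXA1 (0.93) and EMB (1.08). LAT was nearest to TRAT1 (0.94), RASGRP1 (1.52) and TESPA1 (1.52), and LCP2 to FMNL1 (1.04), BTG1 (1.10) and IQGAP2 (1.12). PTPRC was nearest to IL2RG (1.44), VIM (1.46) and SASH3 (1.74), and PLCG1 to ZC3H11A (0.75), UBE2L6 (1.07) and SLC25A38 (1.10). The receptor chain gene CD3E, nearest to LCK, had 166 FPKM in Jurkat and 233 FPKM in TALL104, and 63.6 FPKM in EL4 but 0.0275 FPKM in IVA12.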

How the data were processed

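Stranded messenger RNA libraries of 4 cell lines were used, 1 per line. Per the study's methods and the processing notes, the authors aligned reads with STAR 2.5.1b to the human hg19 and mouse mm10 genomes together, counted them per gene with featureCounts 1.6.3 and deposited FPKM. The notes also name Cell Ranger 1.2.0, which in the study's methods is the name of the combined reference genome. Gene lengths, the strand setting and how reads with several alignments were treated are not given in the sources used here. The table had 0 further columns of samples.

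Reads per gene were solved from each FPKM as whole numbers (relative tolerance 1e-12, gene lengths up to 300000 bases). The length so found was the annotated exon length for 1 of the 9 human and 8 of the 9 mouse genes, and the reads of the rest, with their intervals, may be off by a common factor. Intervals are exact Poisson for levels and exact binomial (Clopper-Pearson) for ratios and shares, at 95%, and the floor is 3 reads in a library.

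Libraries were grouped by cell line and compared within a species by the ratio of FPKM + 1, called above 1.5-fold among genes at 1 FPKM or more in either line. Without replicates no model or test was used. A fold without that pseudocount is the plain FPKM ratio. The 9 genes, the lists and the pairs were chosen with earlier results of these data known. The rule for naming genes took all 9 members, the 3 largest log2 ratios of each list and pair, the counterparts and the 3 nearest genes of each member. The promoters and the shared sequence were added after the values were seen. Names and positions came from GENCODE release 44 mapped to hg19 and from the mouse annotation for mm10, and promoter sequences from RefSeq. A few genes of the lists are not reported here and were left out of the counts, pairs and nearest genes. FYB is listed as FYB1 in the human annotation.

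Alternatives were pseudocounts of 0.1 and 0.01, a 2-fold threshold, no minimum or 1 FPKM in both lines, and 3 other scalings. The calculation was tested on reads simulated with the annotated gene lengths. That test does not cover genes whose length, as found from the FPKM, differed from the annotated length. Python 3.11.15, NumPy 2.4.6, pandas 2.3.3, SciPy 1.17.1 and matplotlib 3.10.9 were used.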

Additional observations from a re-analysis of the deposited data

How the results depend on the processing

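Each of the 9 genes kept the sign of its log2 ratio in both pairs under the 5 pseudocounts and scalings run. With a 2-fold threshold the genes called higher in TALL104 numbered 3 in place of 6. The median log2 ratio of the human pair was -0.74 when libraries were scaled by the median ratio of genes and -0.73 when mitochondrially encoded genes were left out of the totals, and these scalings shift every human ratio by -0.11, the median of all human genes included. In the mouse pair the median was 5.78 with a pseudocount of 0.1, 5.99 with 0.01 and 3.98 with no minimum. With 1 FPKM required in both lines it was -0.21 and 1 gene (Ptprc) was called higher in EL4 in place of 5, since Lck, Zap70, Lat and Lcp2 then leave the comparison. Shares of all genes called are not given for the 2-fold threshold or for this minimum, so these counts stand without a background. By reads in place of FPKM, the first gene of a pair was higher in 3 of 10 pairs in IVA12 in place of 2. No paired analysis was possible because each line had 1 library and the labels give no replicate numbers. Levels below about 0.1 FPKM rest on a few reads.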
